A study of Pinus pinaster with 66 samples.

Results

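The MYB transcription factors measured here are 3 of the 8208 spots on a cDNA array of maritime pine (Pinus pinaster). The study describes spots Q11F13 and Q16P17 as R2R3-Myb transcription factors and spot Q7N23 as Myb5, and the members were taken by these spot identifiers. Each array compared RNA from the needles of 1 harvest month and 1 whorl with a pool of RNA from the January needles, used as the common reference on every array. Needles came from the same 6 adult trees, 20 to 25 years old and growing in the field with no treatment, and were pooled 2 trees at a time into 3 pools, so that every group holds 3 arrays from the same few trees. A whorl is the set of needles that grew in 1 year. Whorl 0 is the current year's growth, which emerged in May, and Whorls 1, 2 and 3 are needles grown 1, 2 and 3 years earlier. Whorls 1 to 3 were harvested in January, March, May, July, September and November, and Whorl 0 in the last 4 of these months, giving 22 groups and 66 arrays.

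MYB proteins bind DNA through repeats of a helical domain, and the R2R3 type is the most numerous in plants. Many R2R3-MYB proteins switch the genes of the phenylpropanoid and flavonoid pathways on or off, often in a complex with a bHLH and a WD40 protein, and conifer members of the family act on the same pathways and on lignin formation. In Arabidopsis, MYB5 acts in the seed coat and in leaf hairs, and in grapevine proteins of the same name act on flavonoid synthesis. Flavonoids absorb ultraviolet light and collect in young and cold-exposed leaves of many plants. Which of these roles the 3 pine genes have is not given by the array.

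The deposited values are logarithms of the ratio of sample to reference, treated here as log2, with values above 0 taken to mean that the needles held more of the transcript than the pooled January RNA. That direction is likely rather than stated, since the methods give the dyes (Cy3 for needles, Cy5 for the pool) but not which is the numerator; it is the direction in which the study reads its values. Replicate 2 of Whorl 2 in November was excluded because the study's network analysis also excluded it. The other 65 arrays were used. Precision is limited by having 3 arrays per group, and how far the spots stood above background is unknown, because no intensities were used. Q11F13 and Q16P17 have a value on every array. Q7N23 has none on 4 arrays (July Whorl 2 replicate 2, September Whorl 0 replicate 3, September Whorl 2 replicate 2 and September Whorl 3 replicate 3), and its fits drop them. All 3 spots passed the filter, which asked for values on 0.5 or more of the arrays used. In whole needles, fewer cells of a type and less RNA per cell cannot be told apart, and no spot with a description is a defining marker of needle tissue, so the tissue label was not checked.

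The 3 spots had unlike patterns across the 22 groups. Q11F13 stood high in the current year's needles of May and July, Q16P17 in those of September and November, and Q7N23 followed the month in needles of all ages. Group means of Q11F13 ran from -0.11 ± 0.04 (SD, n = 3) in January Whorl 3 to 0.75 ± 0.06 (n = 3) in July Whorl 0, a span of 0.86 on the log2 scale or 1.82-fold. Those of Q16P17 ran from -0.24 ± 0.10 (n = 3) in January Whorl 3 to 0.39 ± 0.16 (n = 3) in September Whorl 0, a span of 0.63 or 1.54-fold. For both R2R3-Myb spots the lowest group was therefore the oldest needles of January. Those of Q7N23 ran from -0.75 ± 0.11 (2 values) in September Whorl 0 to 0.52 ± 0.23 (n = 3) in March Whorl 1, a span of 1.27 or 2.41-fold. The median SD within a group was 0.07 for Q11F13, 0.08 for Q16P17 and 0.14 for Q7N23.

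**Figure D1:**
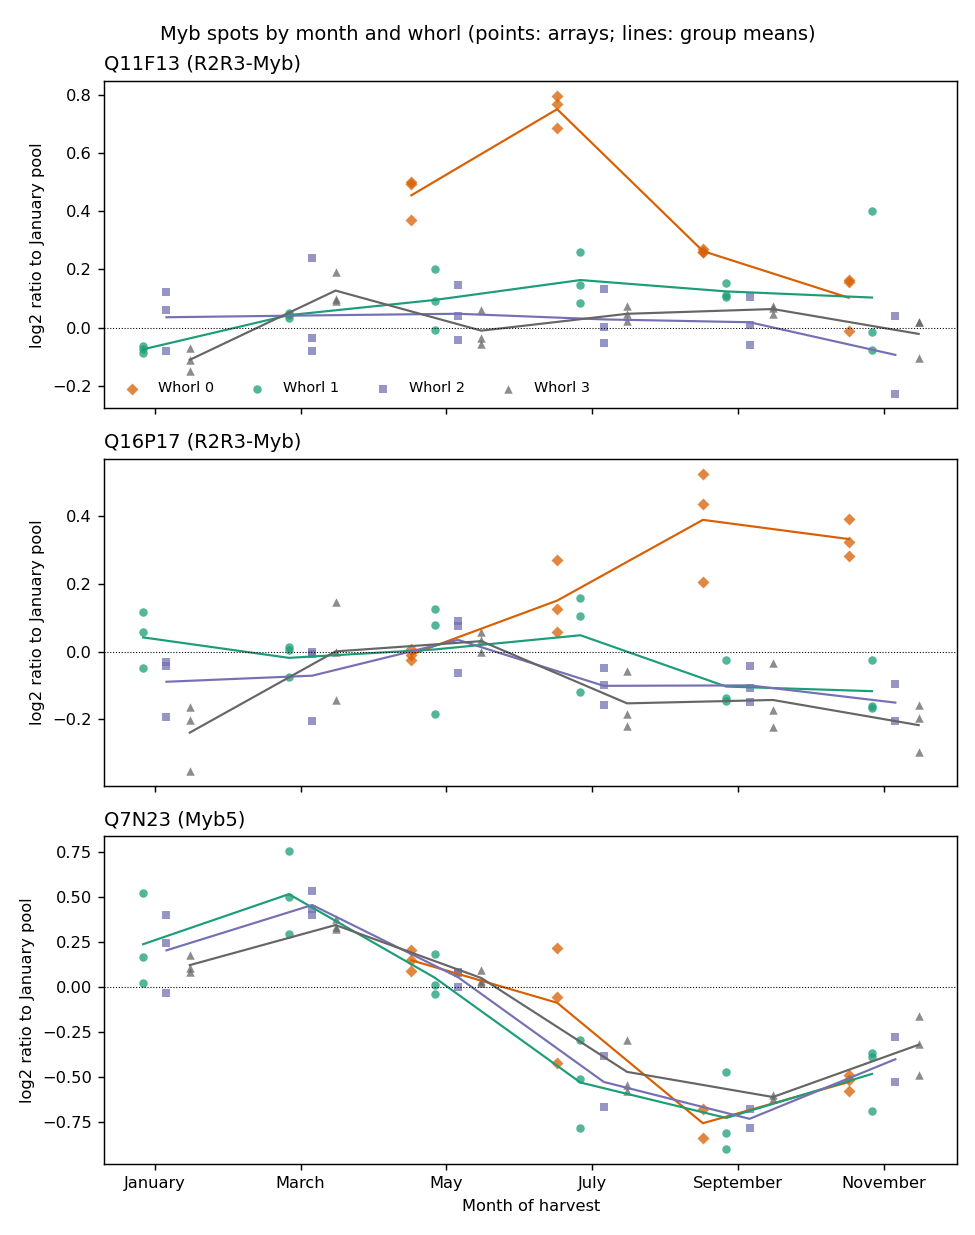
Log2 ratio to the January pool (vertical axis) of the 3 Myb spots by month of harvest, 1 panel per spot. Points are single arrays of the 65 used, lines join group means, and colour and shape give the whorl; Whorl 0 stands above the other whorls in Q11F13 from May to September and in Q16P17 in September and November, while in Q7N23 the whorls follow the months, with Whorl 0 above the others in July.

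Ordered by mean, the 22 groups of Q11F13 began with July Whorl 0, May Whorl 0 (0.45 ± 0.07, n = 3) and September Whorl 0 (0.26 ± 0.01, n = 3). The arrays of the first did not overlap those of the second, nor the second those of the third, and the other 19 of the 21 neighbouring pairs overlapped. The order of Q16P17 began with September Whorl 0, November Whorl 0 (0.33 ± 0.06, n = 3) and July Whorl 0 (0.15 ± 0.11, n = 3). Only November and July did not overlap among its 21 neighbouring pairs. For Q7N23, the 3 March groups came first (0.52, 0.46 and 0.34 in Whorls 1, 2 and 3) and the 4 September groups last (-0.61 to -0.75), whatever the whorl. Among its neighbours, March Whorl 2 and March Whorl 3 alone did not overlap. The groups were sorted by these same means, so neighbours are the closest pairs, and their overlap does not show that groups were alike.

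The first comparison asked how the current year's needles differed from the 3 older whorls of the same month. In May, the arrays of Q11F13 in Whorl 0 read 0.49, 0.37 and 0.50, against a lowest of -0.06, a median of 0.04 and a highest of 0.20 over the 9 older arrays. In July they read 0.77, 0.80 and 0.69, against -0.05, 0.07 and 0.26. In both months every new needle array lay above every older one. Whorl 0 was higher by 0.41 ± 0.06 (SE) in May, or 1.33-fold (adjusted p = 6.2e-07), and by 0.67 ± 0.06 in July, or 1.59-fold (adjusted p = 7.3e-12). In September, the values were 0.26, 0.26 and 0.27 in Whorl 0, still above the older arrays, which had a lowest of -0.06, a median of 0.08 and a highest of 0.15. The difference of 0.19 ± 0.06 did not pass the test (adjusted p = 0.058). It passed without September Whorl 2 replicate 2 (0.21, adjusted p = 0.046) and with the pool within month as a random block (0.19, adjusted p = 0.023).

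By November Q11F13 was at 0.16, 0.16 and -0.01 in Whorl 0, within the range of the older needles (lowest -0.23, median 0.0015, highest 0.40). The highest of these, Whorl 1 replicate 2 at 0.40, stood apart from the other arrays of its group at -0.02 and -0.08. The difference was 0.11 ± 0.07 (adjusted p = 0.51), and -0.00074 against Whorl 1 alone. The difference of Q11F13 thus passed in May and July, and 4.18% of all spots tested ranked above it in July and 13.3% in May.

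Q16P17 had the later pattern. In May, its Whorl 0 arrays read 0.01, -0.02 and -0.01, inside the older range (lowest -0.18, median 0.06, highest 0.12), with a difference of -0.03 ± 0.06 (adjusted p = 0.70). In July they read 0.06, 0.27 and 0.12, 1 of the 3 above the highest older array at 0.16. The July difference of 0.22 ± 0.06, or 1.16-fold, passed the test (adjusted p = 0.0072) but rested on Whorl 0 replicate 2, without which it was 0.16 (adjusted p = 0.12). Against Whorl 1 alone it was 0.10 (adjusted p = 0.39).

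In September and November the groups of Q16P17 no longer overlapped. Whorl 0 read 0.21, 0.43 and 0.52 in September, while the 9 older arrays had a lowest of -0.22, a median of -0.14 and a highest of -0.03. It read 0.32, 0.28 and 0.39 in November, while the 8 older arrays had a lowest of -0.30, a median of -0.16 and a highest of -0.02. All 6 new needle arrays were above the January reference and all 17 older ones below it. The January needles themselves had a mean of -0.10, with 2 of 9 arrays above the reference. Lying below the reference thus does not show a fall from the January needles. In the older needles January stood 0.07 ± 0.05 above November, which did not pass (adjusted p = 0.27). Whorl 0 was higher by 0.50 ± 0.06 in September, or 1.42-fold (adjusted p = 1.2e-07), and by 0.49 ± 0.07 in November, or 1.41-fold (adjusted p = 2.8e-07). Of all spots tested, 1.82% had a higher difference in September and 1.74% in November. The study named both R2R3-Myb spots from groups of genes that it found correlated with whorl on these same arrays. Their Whorl 0 differences and ranks are thus not independent evidence of that relation.

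Q7N23 passed this comparison in July alone. In May its Whorl 0 arrays read 0.21, 0.09 and 0.15, overlapping the older ones (lowest -0.04, median 0.03, highest 0.18), with a difference of 0.10 ± 0.11 (adjusted p = 0.47). In July they read 0.22, -0.06 and -0.42, while the 8 older values had a lowest of -0.78, a median of -0.53 and a highest of -0.29. The 3 pools spread widely in that month: replicate 1 had the highest and replicate 3 the lowest value of Q7N23 in each of the 4 whorls (in Whorl 3, -0.29 and -0.58, and Whorl 2 replicate 2 had no value). Whorl 0 was higher by 0.42 ± 0.11, or 1.34-fold (adjusted p = 0.0024), and by 0.42 ± 0.09 with the pool within month as a random block (adjusted p = 2.6e-04). Without Whorl 0 replicate 1 it was 0.27 (adjusted p = 0.087). In September and November the differences were -0.07 ± 0.13 (adjusted p = 0.83) and -0.13 ± 0.11 (adjusted p = 0.70), and the groups overlapped. In September, leaving out Whorl 0 replicate 1, 1 of its 2 values, turned the sign (0.01).

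Between 1 and 3 of the 3 Myb spots thus passed the test in each month. The array as a whole gave the following background. In May, 1 of the 3 passed, where 52.3% of all spots tested did. In July all 3 passed, where 35% did. September and November each had 1 of 3, Q16P17, where 7.4% and 4.16% of all spots passed. The May count was thus below the share of the array as a whole, and with 3 spots none of these counts is more than a description.

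**Figure D2:**
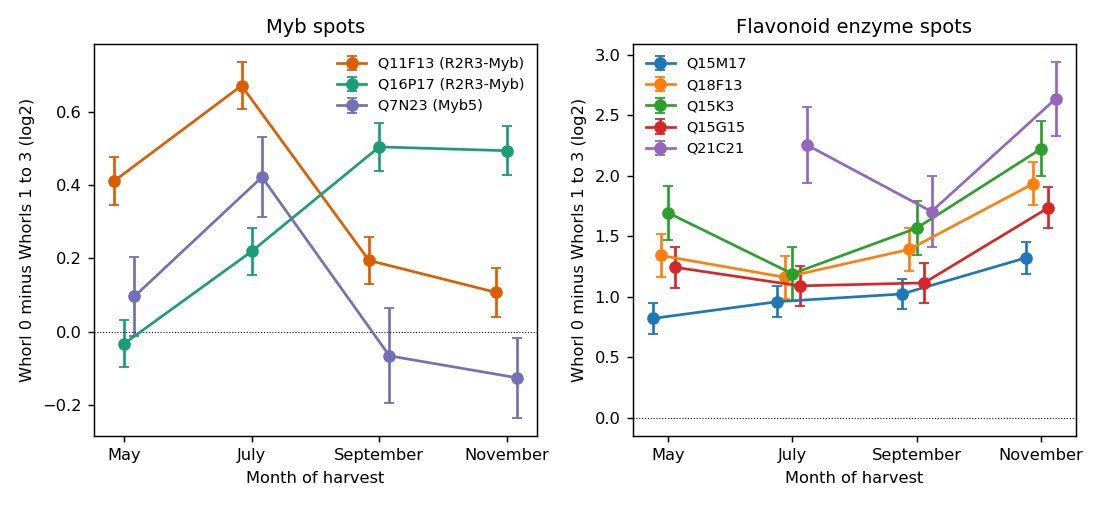
Difference between Whorl 0 and the mean of Whorls 1 to 3 (log2, vertical axis) in each month for the 3 Myb spots (left) and the 5 flavonoid enzyme spots (right); points are fitted differences and bars their SE. Q11F13 and Q7N23 peaked in July at 0.67 and 0.42, Q16P17 reached 0.50 in September, and every enzyme spot tested lay above 0 in every month; Q21C21 was not tested in May.

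The months were then compared within Whorl 0. Q11F13 rose by 0.30 ± 0.08 from May to July (adjusted p = 0.0040) and fell by 0.49 ± 0.08 from July to September (adjusted p = 5.9e-06). From September to November it moved by -0.16 ± 0.08, which did not pass (adjusted p = 0.11). Without replicate 2 of every group the May to July step was 0.23 and did not pass (adjusted p = 0.11). With quantile normalization the May to July step was 0.17 and was lost (adjusted p = 0.30). Q16P17 rose by 0.24 ± 0.08 from July to September (adjusted p = 0.024), and its steps before and after were 0.16 ± 0.08 (adjusted p = 0.15) and -0.06 ± 0.08 (adjusted p = 0.61). The Q16P17 step from July to September was lost when any of 4 of its 6 arrays was left out. With quantile normalization it was 0.19 (adjusted p = 0.13). It was 0.19 without July replicate 1 (adjusted p = 0.14), 0.22 without July replicate 3 (adjusted p = 0.070), 0.22 without September replicate 2 (adjusted p = 0.086) and 0.17 without September replicate 3 (adjusted p = 0.18).

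Q7N23 fell in new needles by 0.67 ± 0.15 from July to September, or 1.59-fold (adjusted p = 5.7e-04). Without replicate 1 of every group the difference was -0.44 and did not pass (adjusted p = 0.097). Its step from May to July was -0.24 ± 0.13 (adjusted p = 0.20), and passed without July replicate 1 (-0.39, adjusted p = 0.043). Its step from September to November was 0.23 ± 0.15 (adjusted p = 0.22). With all replicates, Q11F13 and Q7N23 thus fell from July to September in the new needles in which Q16P17 rose. Of all spots tested, 25.4% passed from May to July, 22% from July to September and 37.3% from September to November. The Myb spots had 1, 3 and 0 of 3.

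Whether the difference between new and older needles itself changed from month to month was tested as an interaction. For Q11F13 it grew by 0.26 ± 0.09 from May to July (adjusted p = 0.035), fell by 0.48 ± 0.09 from July to September (adjusted p = 2.1e-04) and changed by -0.30 ± 0.09 from May to November (adjusted p = 0.0095). For Q16P17 it grew by 0.25 ± 0.09 from May to July (adjusted p = 0.042) and by 0.28 ± 0.09 from July to September (adjusted p = 0.042), and was 0.53 ± 0.09 larger in November than in May (adjusted p = 1.2e-05). The R2R3-Myb spots thus moved in opposite directions from July to September, and between May and November as a whole. For Q7N23 the changes were 0.33 ± 0.15 (adjusted p = 0.14), -0.49 ± 0.17 (adjusted p = 0.069) and -0.22 ± 0.15 (adjusted p = 0.29), and none passed.

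Of all spots tested, 21.7% passed for July against May, 8.1% for September against July and 30% for November against May, and of the Myb spots 2 of 3 passed each time. From September to November no Myb spot passed, with 0.711% of all spots passing. The May to July changes of both R2R3-Myb spots and the July to September change of Q16P17 were close to the threshold. They were lost without any of 5, 14 and 14 of 24 single arrays. In those 5, 14 and 14 cases their values ran from 0.22 to 0.25, from 0.19 to 0.26 and from 0.22 to 0.28. With quantile normalization between arrays, the 3 changes of Q11F13 were 0.15, -0.28 and -0.13 and the first 2 of Q16P17 0.20 and 0.25, and none of these 5 passed (adjusted p from 0.15 to 0.48), whereas the November against May change of Q16P17 did. The November against May change of Q11F13 was lost without November Whorl 0 replicate 3 (-0.25, adjusted p = 0.056) and without replicate 1 or 3 of every group (-0.29 and -0.28, adjusted p = 0.059 and 0.082). The changes of Q7N23 passed without July Whorl 0 replicate 3, at 0.49 from May to July (adjusted p = 0.020) and at -0.65 from July to September (adjusted p = 0.0098). The latter also passed without July Whorl 1, 2 or 3 replicate 1 or September Whorl 1 replicate 2 (-0.52 to -0.53).

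The next comparison followed the season in the older needles, Whorls 1 to 3. Of the 3 spots, Q7N23 changed most from month to month. Its 9 January arrays had a lowest of -0.03, a median of 0.17 and a highest of 0.52, and those of March 0.30, 0.40 and 0.75. In May they were at -0.04, 0.03 and 0.18. In July no array was above the January reference (8 values, lowest -0.78, median -0.53, highest -0.29). September was lower still in its median (7 values, -0.90, -0.68 and -0.47), and November had 8 values of -0.69, -0.38 and -0.16. The July, September and November arrays did not overlap those of January, March or May. The array left out, November Whorl 2 replicate 2, read 0.07.

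From January to March Q7N23 rose by 0.25 ± 0.08 (adjusted p = 0.0098), a call that was lost without replicate 2 of every group (0.20, adjusted p = 0.23). It fell by 0.39 ± 0.08 from March to May (adjusted p = 3.2e-05) and by 0.56 ± 0.08 from May to July, or 1.47-fold (adjusted p = 4.1e-07). The step from July to September was -0.18 ± 0.08 and did not pass (adjusted p = 0.081). It did so without July Whorl 1 replicate 3 (-0.22), July Whorl 2 replicate 3 (-0.23) or September Whorl 1 replicate 3 (-0.22), with adjusted p of 0.030, 0.043 and 0.031. Q7N23 then rose by 0.29 ± 0.08 from September to November (adjusted p = 0.0036, and 0.22 with 0.14 without replicate 2 of every group), and January stood 0.59 ± 0.08 above November (adjusted p = 1.2e-07). January was harvested before November in the same calendar year, so this last difference is between 2 ends of the series and not a step in time. Of all spots tested, 1.85% had a larger change in size than Q7N23 from May to July, and 2.78% between November and January.

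The R2R3-Myb spots passed few of these tests. Over the same 6 differences, Q11F13 passed once, from January to March, at 0.12 ± 0.05 (adjusted p = 0.040). That call was lost when any of 11 of the 18 arrays was left out, with differences from 0.09 to 0.14 over all of them. With the pool within month as a random block its adjusted p was 0.13. The lowest values were 0.09 without March Whorl 2 replicate 1 (adjusted p = 0.14) and 0.10 without January Whorl 2 replicate 1 (adjusted p = 0.10). Q16P17 passed in none, with differences from -0.09 to 0.07. Its July against May difference passed without May Whorl 1 replicate 1 (-0.12, adjusted p = 0.031), and was -0.12 without replicate 1 of every group. The November against September difference of Q11F13 passed without November Whorl 1 replicate 2 (-0.12, adjusted p = 0.012), and was -0.12 without November Whorl 2 replicate 1. The share of all spots passing was 31.6% for March against January, where 2 of the 3 Myb spots did. It was 59.4% for May against March, 34.3% for July against May, 58.6% for November against September and 42.1% for January against November, where Q7N23 alone of the 3 did. For September against July it was 44.8%, and none of the 3 passed.

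Averaged over seasons, Q7N23 was 1.37-fold lower in May, July and September than in the cold months of January, March and November (difference -0.46 ± 0.05, adjusted p = 1e-11). The 24 warm-month values had a lowest of -0.90, a median of -0.43 and a highest of 0.18, and the 26 cold-month values -0.69, 0.17 and 0.75. The seasons overlapped, since May stood with the cold months and November with the warm ones, but 22 of the 24 warm-month values were below the cold-month mean. Month means were 0.05, -0.51 and -0.69 for May, July and September, and 0.19, 0.44 and -0.40 for January, March and November. The p-values of this comparison measure the spread between arrays of a group, not between the months of a season, and each month was harvested once. Q11F13 was higher by 0.06 ± 0.03 in the warm months (27 against 26 values, adjusted p = 0.046), a change of 1.04-fold whose call was lost without any of 29 of the 53 arrays (differences from 0.04 to 0.08 over all 53). With the pool as a block that difference was 0.06 and did not pass (adjusted p = 0.051). Q16P17 differed by 0.04 ± 0.03 (adjusted p = 0.15). Since 74.8% of all spots tested passed this comparison, 2 of 3 Myb spots is no more than the array as a whole. Q7N23 was named in the study for its relation to temperature and rain on these same arrays, so its season here is not independent evidence of that relation. The study also measured it by RT-qPCR, a second method for RNA, and reports that most genes so measured followed the arrays, with a few exceptions. Those values were not used here. The study placed Q7N23 in a group of co-expressed genes whose mean was higher from May to September, whereas Q7N23 itself was lower in those months.

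The needles grown 1 to 3 years before harvest were then compared with each other. Q16P17 was lower in the oldest needles. Whorl 3 was 1.07-fold lower than Whorl 1 over the 6 months, a difference of -0.10 ± 0.03 (adjusted p = 0.046), while Q11F13 was at -0.06 ± 0.03 (adjusted p = 0.26) and Q7N23 at 0.01 ± 0.05 (adjusted p = 0.95). Of all spots tested 10.4% passed. The Q16P17 call was lost without any of 22 of the 36 arrays, with differences from -0.11 to -0.08 over all 36. In January, Whorl 1 of Q16P17 read 0.06, 0.12 and -0.05, Whorl 2 -0.19, -0.04 and -0.03, and Whorl 3 -0.35, -0.16 and -0.20. Whorl 1 thus overlapped Whorl 2 and lay above Whorl 3. It was 0.21 ± 0.07 above the mean of the older ones (adjusted p = 0.057), and the difference passed with the pool as a block (0.21, adjusted p = 0.024). It also passed without January Whorl 1 replicate 3 (0.25, adjusted p = 0.035) or Whorl 3 replicate 2 (0.23, adjusted p = 0.047).

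No Myb spot passed for Whorl 1 against Whorls 2 and 3 in any of the 6 months. Of all spots, limma called 7.3% for January, 0.372% for March, 17.1% for May, 0.619% for July, 0.0401% for September and 0% for November, when 387 spots had an unadjusted p under 0.05. Q11F13 was among them (0.16 ± 0.07, adjusted p = 0.90). A change of the seasonal difference with needle age passed in none of the 3 spots. For Whorl 3 against Whorl 1 the changes were -0.07 ± 0.06, 0.05 ± 0.06 and 0.10 ± 0.11 for Q11F13, Q16P17 and Q7N23 (0.57% of all spots passing), and for Whorl 2 against Whorl 1 they ran from -0.07 to 0.03 (2.7%). The step between Whorl 1 and the older whorls gave no call for January against July either (1.36%), at -0.16 ± 0.10 for Q11F13, 0.03 ± 0.10 for Q16P17 and 0.11 ± 0.16 for Q7N23.

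The sums of squares between group means describe how far month and whorl each went with the spots. In Whorls 1 to 3 over 6 months, month took 98.4% for Q7N23, 47.5% for Q16P17 and 40.5% for Q11F13, and the median over all spots was 79.2%. Whorl took 0.011%, 20.8% and 15.4% there, with a median over all spots of 3.36%. With Whorl 0 added, over its 4 months, whorl took 60.8% for Q11F13 and 61.7% for Q16P17 but 2.42% for Q7N23, with a median over all spots of 18.1%. Month took 15.9%, 1.65% and 87.6%. Whorl thus took the largest share for the R2R3-Myb spots only in the setting with Whorl 0. Month took the largest for Q7N23 in both settings. The setting with Whorl 0 also lacks January and March, so the change cannot be put down to Whorl 0 alone. In Whorls 1 to 3 the combination of month and whorl took 44.1% for Q11F13, its largest share, and 31.7% for Q16P17. These shares are descriptions, with no test.

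**Figure D3:**
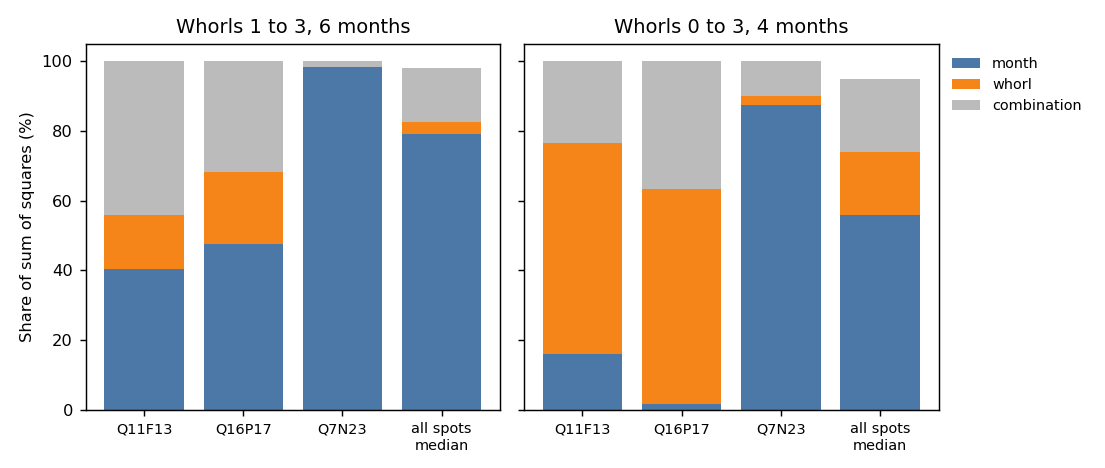
Share of the sum of squares between group means (%, vertical axis) that goes with month, with whorl and with their combination, for each Myb spot and as the median over all spots, in Whorls 1 to 3 (left) and with Whorl 0 added (right). Month fills 98.4% and 87.6% of the Q7N23 bars, and whorl 60.8% and 61.7% of the Q11F13 and Q16P17 bars on the right; medians taken part by part need not add to 100.

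The patterns of the 3 spots were not alike. Across the 22 group means, Q11F13 and Q16P17 had a Pearson r of 0.47, Q11F13 and Q7N23 of -0.03, and Q16P17 and Q7N23 of -0.09. Over the 18 groups of Whorls 1 to 3 these were 0.40, -0.20 and 0.38, so that the last turned its sign without the new needles. All correlations given here are descriptions over group means from the same arrays and reference. Of the 42 other spots in the list compared, 39 with a description and 3 without, the most like Q11F13 was Q14O21, a subtilase, from a family of serine proteases (r = 0.87 over 20 groups). Next came Q11C18, with the AP2 ERF domain of another plant transcription factor family (0.75 over 18 groups), and Q10C3, geranylgeranyl diphosphate synthase, which makes a precursor of carotenoids and diterpenes (0.68 over 22 groups). Q14O21 and Q11C18 shared values with Q11F13 on only 40 and 36 of the 65 arrays, and 16 of the 18 groups of Q11C18 were of Whorls 1 to 3. The most opposite were Q13B15, a hexose transporter, which carries sugars across membranes (-0.56), and Q3A4, a spot without a description (-0.50). Within Whorls 1 to 3 the subtilase and the AP2 ERF spot stayed close to Q11F13 (0.73 over 17 groups and 0.81 over 16), and the synthase less so (0.35 over 18).

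Q16P17 was most like Q10C3 (r = 0.77), Q17L11, an armadillo repeat protein, a type that binds other proteins (0.76), and Q15M17, chalcone synthase, the enzyme of the first step of flavonoid synthesis (0.75), each over 22 groups. By Spearman's rho Q10C3 stayed first (0.64), but Q17L11 (0.40) and Q15M17 (0.42) fell below Q13C16 (0.58), which has no description, Q21C21, flavonoid-3'-5'-hydroxylase (0.56), Q14O21 (0.53) and Q11F13 (0.52), so the order after the first depended on the measure. Of these, Q13C16 and Q14O21 shared values with Q16P17 on only 35 and 40 arrays. By Pearson's r its most opposite spots were Q13B15 (-0.26) and Q3A4 (-0.25). The likeness to the synthase of flavonoids came with the new needles, since over the 18 groups of Whorls 1 to 3 r was 0.13 for Q15M17 and 0.14 for Q17L11, against 0.51 for Q10C3. Q7N23 was most like Q7F2, a CRK1 protein (0.88), Q5C1, an auxin-responsive protein (0.59), and Q13B15 (0.55). It was most opposite to Q11E4, elongation factor 1-alpha, which brings amino acids to the ribosome (-0.65), and Q14J11, an endoplasmin precursor, a chaperone of the endoplasmic reticulum (-0.63). By Spearman's rho Q3A4 (0.60) came before Q13B15 (0.57), and Q22K3 (-0.60) before Q14J11 (-0.58). By Pearson's r over all groups, the hexose transporter spot thus stood at the opposite end from both R2R3-Myb spots and near Q7N23. For Q16P17 that place depended on the measure. By Spearman's rho Q17K21, alcohol dehydrogenase (-0.34), was lower than Q13B15 (-0.30). Over Whorls 1 to 3 r was -0.11 for Q13B15 and -0.63 for Q2I24, which has no description. Among the 5823 spots measured on every one of the 65 arrays, the highest r was with Q11H20 (0.92) and Q12B15 (0.92) for Q11F13, Q12B21 (0.87) and Q13E1 (0.84) for Q16P17, and Q2F10 (0.91) and Q9B11 (0.90) for Q7N23. These 6 spots have no description.

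**Figure D4:**
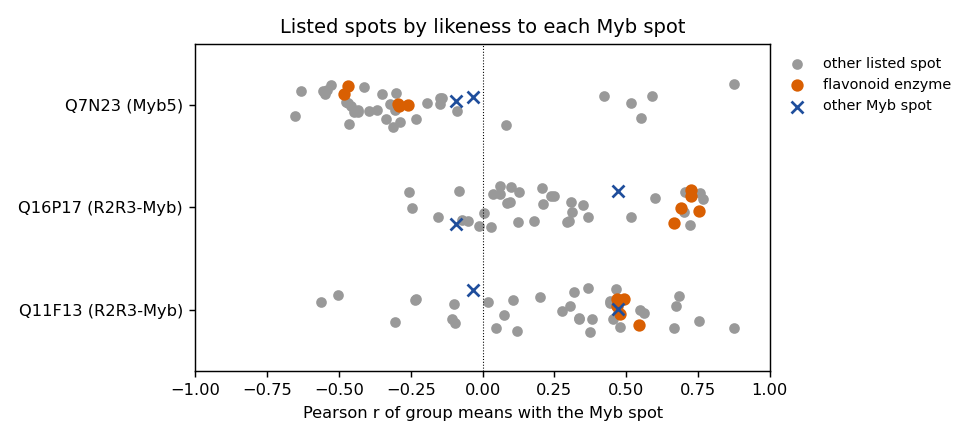
Pearson r of group means (horizontal axis, over 18 to 22 groups) between each Myb spot (rows) and the 42 other spots of the list, 3 of them without a description. The 5 flavonoid enzymes lie between 0.67 and 0.75 for Q16P17, between 0.47 and 0.55 for Q11F13 and between -0.48 and -0.26 for Q7N23.

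Genes of flavonoid enzymes are known targets of R2R3-MYB proteins in many plants, and 5 spots of that kind were set beside the Myb spots. They are chalcone synthase (Q15M17 and Q18F13), chalcone isomerase (Q15K3), which closes the ring of the chalcone, flavanone 3-hydroxylase (Q15G15) and flavonoid-3'-5'-hydroxylase (Q21C21), which add hydroxyl groups. The study grouped the R2R3-Myb spots with flavonoid genes on these same arrays, so their likeness is not independent evidence. All 5 enzyme spots are also among those that the study lists as most correlated with whorl on these arrays. Their differences between whorls, here and below, thus follow from that choice and are not separate evidence. All 4 enzymes tested in May were higher in new needles than in older ones (median difference 1.29), and so were 5 of 5 in each later month (median 1.16 for July, 1.39 for September and 1.94 for November). The shares of all spots passing were 52.3%, 35%, 7.4% and 4.16% from May to November. The median over all spots tested lay between -0.03 and -0.01 in those months. In May, when the enzymes were already higher by 0.82 to 1.70, Q16P17 did not pass between new and older needles and Q11F13 did. In November, when they were higher by 1.32 to 2.64, Q16P17 passed and Q11F13 did not.

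The same enzymes were followed in the other comparisons. In January, 5 of 5 enzymes were higher in Whorl 1 than in Whorls 2 and 3 (0.94 to 2.02, median 1.41, with 7.3% of all spots passing). Q16P17 was at 0.21 and Q11F13, of the opposite sign, at -0.04, and neither passed (adjusted p = 0.057 and 0.81). Over the 6 months, 4 of 4 enzymes tested were lower in Whorl 3 than in Whorl 1 (median -0.48, 10.4% of all spots passing). Q16P17 was lower by less (-0.10), a call lost without any of 22 of the 36 arrays. From July to September in the older needles 5 of 5 enzymes rose (median 0.94, with 44.8% of all spots passing), where Q11F13 and Q16P17 stood at -0.01 ± 0.05 and -0.05 ± 0.05. From September to November 4 of 5 enzymes fell (median -0.97, with 58.6% of all spots passing), with Q11F13 at -0.07 ± 0.05 and Q16P17 at -0.05 ± 0.05, while Q7N23 rose. From July to September in new needles 4 of 5 enzymes rose (median 0.97, with 22% of all spots passing), while Q11F13 and Q7N23 fell. Q16P17 rose by 0.24 there, a call lost without any of 4 of its 6 arrays. For warm against cold months 2 of 4 enzymes tested were higher and none lower (median 0.16), below the 74.8% of all spots that passed.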

How the data were processed

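The deposited file holds 1 value per spot and array, a log ratio of needle RNA (Cy3) to the January pool (Cy5), which the authors had normalized across arrays using the BABAR method. The base of the logarithm is not given in the sources used here, and the deposited values were taken as log2. Labels name January as the source of the reference and, in most samples, another month in 1 field. January was used. The median of every array is 0, and between 6519 and 8076 spots per array have a value. Correlations between pairs of arrays ran from -0.25 to 0.97. No column of values lacked a sample (0 unused).

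Group means were fitted with limma 3.58.1 in R 4.3.3, 1 mean for each of the 22 groups of month and whorl, with moderated variances shared by all groups and Benjamini-Hochberg adjustment over all spots with values on 0.5 or more of the arrays and in every group compared. The threshold was an adjusted p of 0.05, and fold changes are powers of 2 of the fitted differences. The fit was tested on simulated data. Descriptions used Python 3.11.15 with numpy 2.4.6 and pandas 2.3.3. Warm months are May, July and September.

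Replicates with the same number were taken as the same pool of trees, from the labels and a legend of the paper. Deviations from group means correlated by 0.28 on average for arrays sharing number and month (87 pairs, 68 of them over 0.1). For the same number in different months the average was 0.09 (585 pairs, 294 over 0.1). Between different numbers of a month it was -0.14, which is not a separate observation, since deviations cancel out within a group. The p-values measure the spread between pools of the same 6 trees.

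The members, the list of 5 flavonoid enzymes and the tests were chosen with earlier results of these data known. Spots named are the 3 members, these enzymes and, per member, the 3 most alike and 2 most opposite of the described spots and the 2 most alike of all spots. A few more are named where they ranked beside these by another measure. Alternatives were quantile normalization, a replicate block, fixed or random within month, keeping the excluded array, fitting only the arrays compared, filters, robust variances, Whorl 1 alone as the comparison, and leaving out each array and each replicate number. Correlations were also taken by Spearman's rho, over Whorls 1 to 3 alone and over the 65 arrays. Temperature and rain were not used here.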

Additional observations from a re-analysis of the deposited data

Results flagged for a closer look

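In 21 interaction tests with limma, which asked whether a difference changed with month or needle age, 6 passed. Of all spots tested, 21.7% passed for July against May, 8.1% for September against July and 30% for November against May. With quantile normalization 5 of the 6 were lost, and the May to November change of Q16P17 was not. All 6 are changes between months in how far new needles of an R2R3-Myb spot stood from older ones. For Q11F13 the difference changed by 0.26 from May to July (adjusted p = 0.035), by -0.48 from July to September (adjusted p = 2.1e-04) and by -0.30 from May to November (adjusted p = 0.0095). New needles of Q11F13 lay above all older ones on 3 of 3 arrays in May, July and September and on 0 of 3 in November. For Q16P17 it changed by 0.25 from May to July (adjusted p = 0.042), by 0.28 from July to September (adjusted p = 0.042) and by 0.53 from May to November (adjusted p = 1.2e-05). New needles of Q16P17 lay above all older ones on 0 of 3 arrays in May, 1 of 3 in July and 3 of 3 in September and November. The 3 tests of each spot share arrays, so they are not separate observations.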

How the results depend on the processing

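Differences are on the log2 scale, and the cause of each change was not tested. Of the 42 differences reported singly, 25 passed, and 10 of these kept direction and call under every alternative run. They are the May and July differences between new and older needles of Q11F13, the September and November differences of Q16P17 with its change from May to November, the fall of Q11F13 in Whorl 0 from July to September, and, for Q7N23 in Whorls 1 to 3, the season, March to May, May to July and November to January. The other 42 differences, none of which passed, passed in 5 of 1203 alternative values.

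Quantile normalization ended the calls of Q11F13 for the season (0.036), March against January (0.13), July against May in Whorl 0 (0.17), and the changes of the Whorl 0 difference from May to July (0.15), July to September (-0.28) and May to November (-0.13). For Q16P17 it ended September against July in Whorl 0 (0.19), Whorl 3 against Whorl 1 (-0.094) and the changes from May to July (0.20) and July to September (0.25), and it turned the sign of November against September in Whorl 0 (0.11). Q7N23 then passed for September against July in Whorls 1 to 3 (-0.29). Keeping the excluded array ended the Q11F13 seasonal call (0.054).

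With the replicate number as a block, the pairing ended the Q11F13 seasonal call (0.058, adjusted p = 0.051), and Q16P17 passed for January Whorl 1 against Whorls 2 and 3 (0.21). The block changed no other call. As a random block within month it also ended March against January of Q11F13 (0.12; season 0.056), and 3 differences passed: Whorl 0 in September for Q11F13 (0.19), January Whorl 1 for Q16P17 (0.21) and the July to September change of Q7N23 (-0.47).

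Fitting only the arrays compared ended the season (0.059) and the May to November change (-0.30) of Q11F13, and September against July in Whorl 0 (0.24), Whorl 3 against Whorl 1 (-0.096) and the changes from May to July (0.25) and July to September (0.28) of Q16P17. Whorl 0 in September then passed for Q11F13 (0.19). Against Whorl 1 alone, the July difference of Q16P17 was 0.10 and the November difference of Q11F13 -0.00074.

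Leaving out single arrays or replicate numbers gave these ranges where a call or a sign changed. For Q11F13 they were 0.021 to 0.084 (season), 0.18 to 0.21 (Whorl 0, September), 0.05 to 0.17 (March against January), 0.23 to 0.35 (July against May, Whorl 0), and, for the changes of the Whorl 0 difference, 0.19 to 0.35 (May to July) and -0.35 to -0.25 (May to November). For Q16P17 they were -0.089 to 0.0020 (Whorl 0, May), 0.16 to 0.26 (Whorl 0, July), 0.092 to 0.21 (July against May, Whorl 0), 0.16 to 0.33 (September against July, Whorl 0), -0.15 to 0.012 (November against September, Whorl 0), 0.14 to 0.28 (Whorl 1, January), -0.11 to -0.084 (Whorl 3 against Whorl 1), and 0.18 to 0.33 (May to July) and 0.22 to 0.38 (July to September) for the changes. For Q7N23 they were 0.27 to 0.59 (Whorl 0, July), -0.17 to 0.013 (Whorl 0, September), 0.20 to 0.30, -0.35 to -0.028 and 0.22 to 0.36 in Whorls 1 to 3 (March against January, September against July, November against September), -0.39 to -0.069 and -0.83 to -0.44 in Whorl 0 (July against May, September against July), and 0.17 to 0.49 (May to July) and -0.65 to -0.34 (July to September) for the changes.

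Counts over all spots moved by over 1.5 times in 0 to 12 of 28 comparisons per setting, and in 7 to 21 without 1 replicate number. The setting with Whorl 1 alone had only 4 comparisons, of which 3 moved. Whorl 0 against older went from 550 to 921 spots (random block) or 285 (Whorl 1 alone) in September, from 312 to 523 (random block), 490 (quantile), 155 (only arrays compared) or 110 (Whorl 1 alone) in November, and from 2615 to 1491 (Whorl 1 alone) in July. In Whorl 0, quantile normalization took July against May from 1912 to 936 and September against July from 1641 to 934. The changes of the Whorl 0 difference went from 1612 to 1056 (May to July) and from 591 to 239 (July to September). For Whorl 1 against Whorls 2 and 3, the January count of 567 became 120 without replicate 1, 141 without replicate 2, 993 with the random block and 236 with only the arrays compared, and the May count of 1324 became 534 without replicate 2 and 446 without replicate 3. Over the same alternatives the counts of 29 in March, 47 in July, 3 in September and 0 in November ran from 3 to 145, 0 to 177, 0 to 5 and 0 to 4.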

Other observations

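On the 9 January arrays, January needles of Whorls 1 to 3 were set against the pool of January RNA itself. Q7N23 was above 0 on 8 of these 9 arrays, at 0.19 ± 0.18 (SD, n = 9). Q11F13 and Q16P17 were above 0 on 2 of 9 each, at -0.05 ± 0.09 and -0.10 ± 0.15 (SD, n = 9). The median over the spots of each of these arrays is 0.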
